A study of Mus musculus with 4 samples.

Results

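Chemokines are small secreted proteins that draw cells carrying the matching receptor, and 7 chemokine genes made by helper T cells (Ccl1, Ccl3, Ccl4, Ccl5, Xcl1, Ccl9 and Cxcl3) are described here. They were taken as the genes whose symbol stands alone in the platform annotation of a probe set, a group of probes that report on 1 transcript. This rule gave 8 probe sets for the 7 genes, of 18193 genes measured, with 1 probe set for each of 6 genes and several only for Ccl9. No probe set named 1 of these genes beside another gene.

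Naive CD4+ T cells from mouse spleen and lymph nodes, sorted as CD44- CD62L+, were activated through CD3 and CD28 for 3 days and grown in interleukin-2 at 50 U/ml for 4 more days, with the polarizing cytokine present throughout. Th1 cultures received interleukin-12, at 20 ng/ml during activation and 10 ng/ml afterwards, and Th2 cultures received interleukin-4 at 10 ng/ml; an antibody against interleukin-4 (Th1) or interferon gamma (Th2) was present during activation. After 7 days all cultures were stimulated again through CD3 and CD28 for 2 h, with interleukin-12 at 20 ng/ml or interleukin-4 at 10 ng/ml, so each value is that of restimulated cells. The 4 groups were Th1 wild type (C57BL/6J), Th1 from STAT4 knockout mice (C57BL6-STAT4<tm1>), Th2 wild type (C57BL/6J) and Th2 from STAT6 knockout mice (B6.129S2©-STAT6<tm1Gru>/J), with 1 Affymetrix array of total RNA for each group. The knockout mice carry the alleles throughout, so the factor was also missing before culture. The labels do not say how many mice gave the cells, and culture condition and genotype of the deficient groups differ together wherever those 2 groups are compared.

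STAT4 carries the signal of interleukin-12 and STAT6 that of interleukin-4, and the study compared cells with and without each factor. Many chemokine genes sit in chromosomal clusters, and those of T cells are typically induced when the T cell receptor is engaged. CCL3, CCL4 and CCL5 recruit T cells and monocytes, XCL1 draws cross-presenting dendritic cells that carry XCR1, CCL1 is the ligand of CCR8, CCL9 binds CCR1, and CXCL3 attracts neutrophils through CXCR2.

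Values are log2 expression values, so a difference of 1 is 2-fold. With 1 array for each group replicate spread is unknown and nothing was tested. A gene was called higher or lower where its main probe set (the one with the highest mean) differed by at least 1 and the brighter array reached 5.82, the median of all values. As a technical guide, the SD of the disagreement between probe sets of 1 gene was 0.48 for STAT4 loss (Th1 STAT4-deficient minus Th1 wild type) and 0.65 for STAT6 loss (the same difference within the Th2 pair). It was 0.71 between the wild types (Th1 minus Th2) and 0.85 between the deficient groups. It says nothing of the variation from mouse to mouse or culture to culture.

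The arrays themselves differed in ways that touch these values. The median difference over all genes at the level minimum was 0.13 for STAT4 loss and −0.30 for STAT6 loss; the wild types differed by −0.37 and the deficient groups by 0.02. The actin control's 3′ signal exceeded its 5′ signal by 2.08 on the STAT6-deficient array and by 0.32 to 0.85 on the others, a sign of RNA quality whose part in the results was not tested. Below the level minimum each array held only 97 to 103 distinct values among 20442 to 23874 probe sets, so dim values lie on a coarse grid that many probe sets share. The T cell markers listed for the check were bright on all arrays: all 8 measured of 9 lay between 9.68 and 13.87. None of the 4 measured NK cell markers of 6 reached the minimum on any array. The Stat4 probe set read 11.45 in Th1 wild type and 9.20 in STAT4-deficient cells, while the brighter Stat6 probe set read 10.93 in Th2 wild type and 10.92 in STAT6-deficient cells. Whether either lies in the deleted part is not known here.

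**Figure D1:**
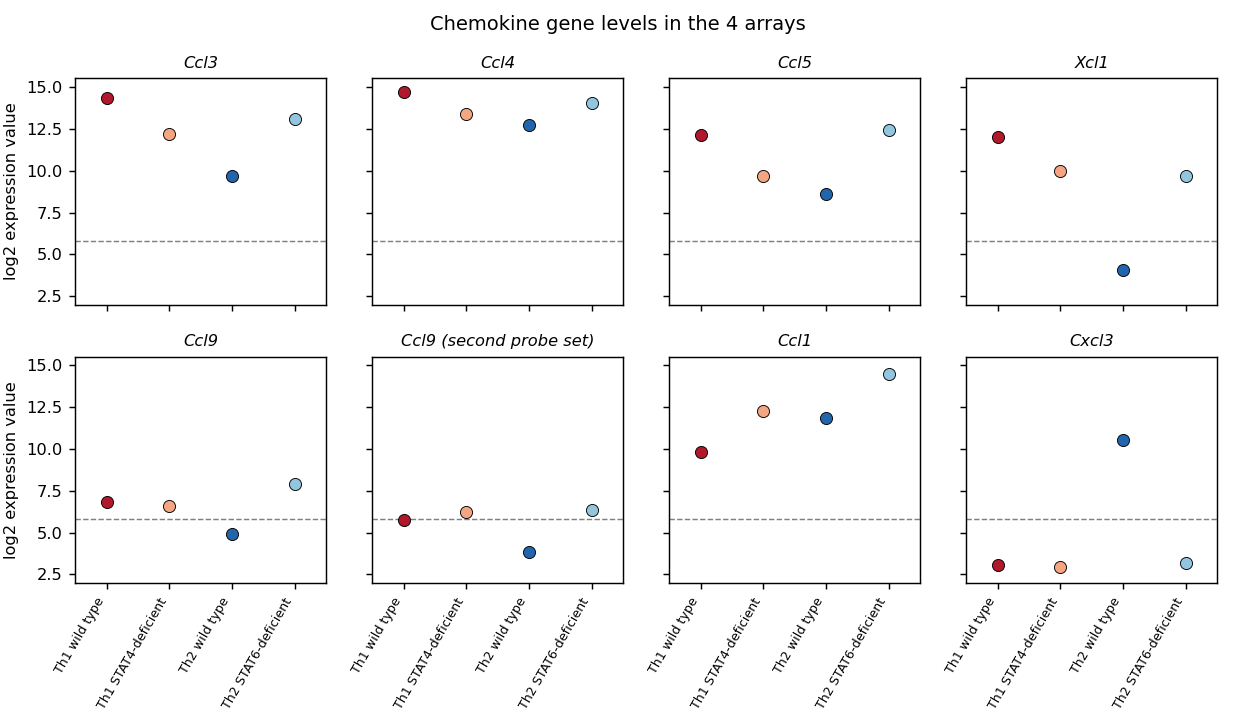
Log2 expression value (vertical axis) of each chemokine probe set on the 4 arrays (horizontal axis, 1 point for each array), with the level minimum of 5.82 dashed. Ccl3, Ccl4, Ccl5 and Xcl1 are highest in Th1 wild type or Th2 STAT6-deficient cells and lowest in Th2 wild type cells, Ccl1 is lowest in Th1 wild type cells, and Cxcl3 stands above the minimum in Th2 wild type cells alone.

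The bases upstream of 4 of these genes are shown because the genes carry the main patterns below: Ccl3 and Xcl1 (lower without STAT4, higher without STAT6), Ccl1 (higher without either factor) and Cxcl3 (bright in wild type Th2 cells alone). Each is the 250 bases before the gene's start in RefSeq (GRCm38.p6), written 5′ to 3′ on the gene's strand. Capitals mark matches, on either strand, to the letters GGG, any 5 bases and CC, the spacing of an NF-kappaB type site; the Ccl3 and Xcl1 windows hold none.

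Ccl3 (chr11:83649379-83649628, minus strand): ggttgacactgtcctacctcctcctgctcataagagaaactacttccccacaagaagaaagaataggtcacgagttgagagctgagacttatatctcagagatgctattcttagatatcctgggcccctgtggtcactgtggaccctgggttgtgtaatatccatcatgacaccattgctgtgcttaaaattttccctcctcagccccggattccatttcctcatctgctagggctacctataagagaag

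Xcl1 (chr1:164935523-164935772, minus strand): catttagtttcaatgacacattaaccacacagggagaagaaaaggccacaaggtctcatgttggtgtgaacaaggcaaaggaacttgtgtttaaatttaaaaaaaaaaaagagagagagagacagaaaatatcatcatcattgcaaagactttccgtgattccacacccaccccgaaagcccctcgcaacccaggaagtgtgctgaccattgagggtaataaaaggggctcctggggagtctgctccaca

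Ccl1 (chr11:82179813-82180062, minus strand): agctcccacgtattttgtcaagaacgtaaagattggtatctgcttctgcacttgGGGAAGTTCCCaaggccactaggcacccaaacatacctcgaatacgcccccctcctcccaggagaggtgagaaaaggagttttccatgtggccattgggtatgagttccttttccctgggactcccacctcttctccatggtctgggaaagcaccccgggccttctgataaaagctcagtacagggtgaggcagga

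Cxcl3 (chr5:90785851-90786100, plus strand): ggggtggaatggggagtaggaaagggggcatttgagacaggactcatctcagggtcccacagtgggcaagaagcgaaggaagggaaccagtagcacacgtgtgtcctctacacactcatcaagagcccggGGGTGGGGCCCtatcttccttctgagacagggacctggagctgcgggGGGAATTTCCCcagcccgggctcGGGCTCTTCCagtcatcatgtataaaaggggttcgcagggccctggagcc

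Those letters occurred upstream of Ccl1, Ccl9 and Cxcl3 among the 5 genes of this set with an entry, and in 45.8% of all 32851 upstream windows of the same length. In Ccl1 and at 2 places in Cxcl3, matches on both strands overlap within 1 capital run. The STAT spacings TTC, any 3 bases and GAA (7.02% of all windows) and TTC, any 4 bases and GAA (5.85%) matched in none of the 5, nor did the AP-1 letters TGACTCA (4.46%). A match is only a match of letters, and a missing one says nothing of sites elsewhere. Ccl4 and Ccl5 had no entry.

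Without STAT4, Th1 cells had lower signal for 4 chemokine genes, Ccl3, Ccl4, Ccl5 and Xcl1, and higher signal for 1, Ccl1. Ccl9 was not called and Cxcl3 lay below the minimum on both Th1 arrays. Over all 12608 genes at the minimum 5.34% were called lower and 6.18% higher. The median difference of the 7 genes, with Cxcl3 included though below the minimum, was −1.31, against 0.13 for all genes at the minimum. These 7 genes were put together with such differences already known, so the counts describe them and support nothing further. In these bulk samples fewer cells that make a transcript and less transcript in each cell cannot be told apart.

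Without STAT6, Th2 cells had higher signal for 6 of the 7, namely Ccl3, Ccl4, Ccl5, Xcl1, Ccl9 and Ccl1, and lower signal for Cxcl3. Here 7.01% of 11490 genes were called higher and 19.5% lower. The median of the 7 was 2.95 and that of all genes −0.30, with Cxcl3 the exception to the higher signal; the all-gene median was −0.04 after quantile normalization and −0.05 after cyclic loess. Between the wild types 5 genes were higher in Th1 cells (background 8.14% of 12111 genes) and Ccl1 and Cxcl3 were higher in Th2 cells (background 25.4%). The wild type comparison shares an array with each loss, so its values are not independent of theirs.

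**Figure D2:**
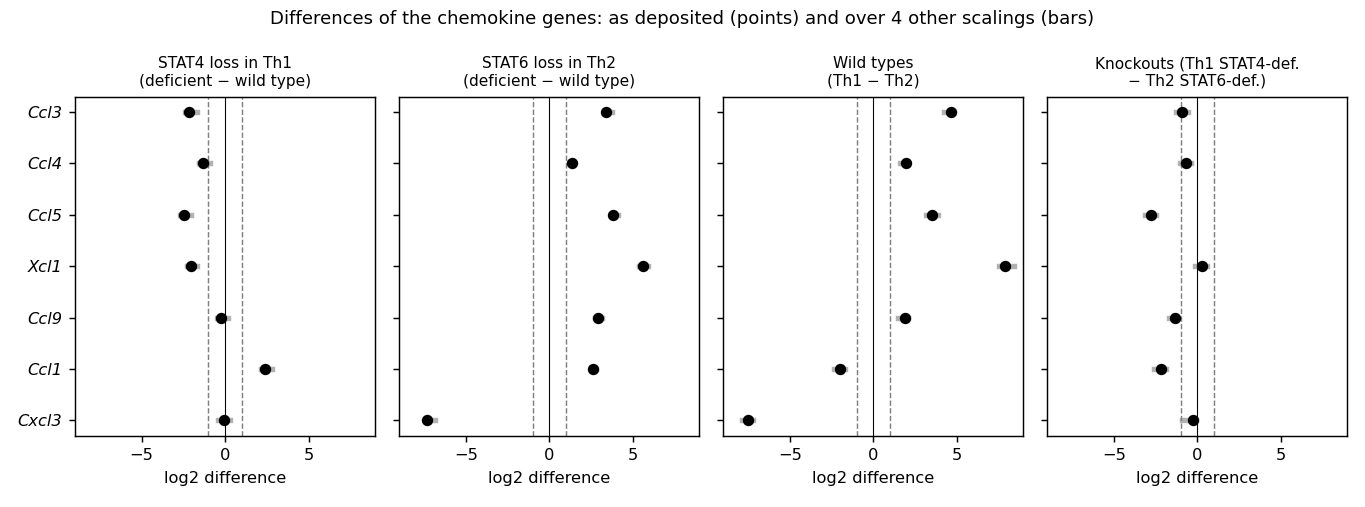
Log2 difference (horizontal axis) of each chemokine gene in the 4 comparisons, with points for the values as deposited, grey bars for the range over 4 other scalings of the arrays, and dashed lines at a difference of 1 either way. Ccl3, Ccl5 and Xcl1 lie beyond these lines on opposite sides for STAT4 loss and STAT6 loss under each scaling, while the bar of Ccl4 crosses the line for STAT4 loss.

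Ccl3, which encodes MIP-1 alpha, read 14.31 and 12.17 in Th1 cells with and without STAT4, and 9.67 and 13.09 in Th2 cells with and without STAT6. It was brightest in wild type Th1 cells and dimmest in wild type Th2 cells, with both deficient groups between them. The reading was 4.40-fold lower without STAT4 (−2.14) and 10.7-fold higher without STAT6 (3.42). The wild types differed by 4.64, which ranked 11 of 12111 genes from the Th1 side.

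Ccl4, the MIP-1 beta gene next to Ccl3, read 14.68, 13.37, 12.69 and 14.05 in the same order of groups. The order of the arrays was that of Ccl3, over a narrower range of 1.98. Its differences were −1.31 for STAT4 loss and 1.36 for STAT6 loss. On the Th1 wild type array the value lay 0.44 below the brightest probe set of all, and such values near the top of the scale can understate a fold. The STAT4 difference was −1.44 relative to the median gene but −0.95 after cyclic loess and −0.92 after scaling to the hybridization controls, short of the limit.

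Ccl5, which encodes RANTES, read 12.14 and 9.68 in Th1 cells with and without STAT4, and 8.62 and 12.45 in Th2 cells with and without STAT6. The arrays fell into a bright pair, Th1 wild type and Th2 STAT6-deficient, and a dimmer pair. Signal was 5.52-fold lower without STAT4 (−2.46) and 14.2-fold higher without STAT6 (3.82). The bright pair differed by 0.30, less than the smallest of the probe-set SDs (0.48).

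Xcl1, the gene of lymphotactin, read 12.02 and 9.97 in Th1 cells with and without STAT4, and 4.10 and 9.71 in Th2 cells with and without STAT6. Of the 4 arrays, that of wild type Th2 cells was below the level minimum, on a value that 453 other probe sets of that array share exactly. Counted against the minimum instead of that dim value, Xcl1 was at least 73.6-fold higher in wild type Th1 than in wild type Th2 cells and at least 14.8-fold higher in STAT6-deficient than in wild type Th2 cells; the values as deposited differ by 7.92 and 5.61. As deposited these ranked 2 of 12111 and 6 of 11490 genes, places that rest on the dim value. Counted from the minimum, the STAT6 difference is at least 3.89. Between the Th1 arrays Xcl1 was 4.15-fold lower without STAT4 (−2.05). Xcl1 is a gene of NK and CD8 T cells as well. The NK markers Ncr1, Klra1, Klra7 and Klra8 lay between 3.19 and 5.66, below the minimum on each array. Of the CD8 markers, Cd8a read 5.80 to 6.16 on the 4 arrays and Cd8b1 6.47 to 8.54, highest in Th2 wild type cells. The part of NK cells and of CD8 T cells in the Xcl1 signal was not tested.

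The log2 gap between the wild types gives a common measure for these 4 genes. As a share of that gap above wild type Th2 cells, STAT4-deficient Th1 cells stood at 30.0% for Ccl5, 33.9% for Ccl4, 53.9% for Ccl3 and 74.1% for Xcl1. STAT6-deficient Th2 cells stood at 68.4% for Ccl4, 70.8% for Xcl1, 73.7% for Ccl3 and 109% for Ccl5. Thus Xcl1 was the one of the 4 with both deficient groups at about the same height, and Ccl5 the one with the widest spread between them. Over the 4 other scalings the Ccl4 share in STAT4-deficient cells ran from 21.8% to 50.8% and the Xcl1 share from 71.1% to 78.0%. The Xcl1 shares also rest on the dim Th2 value.

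Ccl9 encodes a chemokine described mainly from mouse myeloid cells. Its main probe set read 6.80 and 6.56 in Th1 cells with and without STAT4, and 4.93 and 7.87 in Th2 cells with and without STAT6. The other one read 5.74, 6.22, 3.81 and 6.32. Both had their lowest value in wild type Th2 and their highest in STAT6-deficient Th2 cells, with STAT6 differences of 2.95 and 2.50. For STAT4 loss they differed in sign, at −0.24 and 0.47, both within the probe-set SD of 0.48. The main probe set reached the minimum on 3 arrays and the other on 2. When the dim wild type value is replaced by the minimum, the STAT6 difference amounts to at least 4.16-fold on the main probe set. On the other one it is at least 1.41-fold, short of 2-fold. Of the macrophage and monocyte markers, 7 of 10 were measured; Cd14 and Itgam lay below the minimum on each array and Csf1r read 7.03 to 7.20. The minimum was reached by 3 of the 7 where STAT6 was missing and by 2 where STAT4 was missing. It was reached by 4 on each wild type array. The summed log2 level of the 7 was 37.2 in STAT6-deficient Th2 cells and 39.3 to 43.0 on the other arrays. These sums include values below the minimum, which lie on the coarse grid. The 43.0 belongs to wild type Th2 cells, where Adgre1 read 8.26. The part of macrophages and monocytes in the Ccl9 signal was not tested.

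Ccl1, which encodes the CCR8 ligand TCA-3, read 9.83 and 12.24 in Th1 cells with and without STAT4, and 11.83 and 14.45 in Th2 cells with and without STAT6. It was above its wild type value on both deficient arrays, by 2.41 (5.32-fold) without STAT4 and by 2.62 (6.15-fold) without STAT6. These ranked 24 of 12608 and 120 of 11490 genes. Wild type Th2 cells were 2.00 above wild type Th1 cells, and STAT4-deficient Th1 cells were 0.41 above wild type Th2 cells, less than the smallest of the probe-set SDs (0.48). The STAT6-deficient value lay 0.60 below the brightest probe set of its array.

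Cxcl3, a neutrophil attractant, read 3.03 and 2.96 in Th1 cells with and without STAT4, and 10.52 and 3.20 in Th2 cells with and without STAT6. Wild type Th2 cells alone were above the minimum, and the other values are shared exactly by 117 to 423 other probe sets of their arrays, so they have no order among themselves. The wild type Th2 signal was at least 26.05-fold higher than on any other array, counted against the minimum. The differences as deposited were −7.32 for STAT6 loss, 4 of 11490 genes from the bottom, and −7.49 between the wild types, 5 of 12111 from the bottom. Both places rest on the dim values. Among the macrophage and monocyte markers, Adgre1 was highest on the same array (8.26, against at most 5.92 elsewhere). Fcgr3 was also highest there (6.67), close to Th1 wild type (6.62), and was at least 1.80-fold lower without STAT6. Lyz2 was lowest there (4.88), and Csf1r (7.07) and Cd68 (6.61) were higher on another array. Cd14 and Itgam were below the minimum on each array, with Cd14 highest in Th2 wild type (5.38). Of the 6 measured neutrophil markers, S100a8, S100a9, Csf3r and Elane lay below the minimum on each array. Cxcr2 reached it on both wild type arrays (7.60 in Th1 and 6.89 in Th2), and Mpo in Th1 wild type cells (6.26). Cpa3, in the mast cell and basophil list, read 8.64 in Th2 wild type and 4.90 to 6.96 elsewhere, while Kit reached the minimum on both Th1 arrays (6.72 and 6.14) and read 3.95 in Th2 wild type. The other members of that list, Fcer1a, Ms4a2, Mcpt8 and Mcpt4, stayed below the minimum. Of the 5 measured dendritic cell markers, Itgax reached the minimum in Th2 wild type alone (6.76, against 5.03 to 5.57 elsewhere), as Cxcl3 did. Counted from the minimum it was at least 1.92-fold higher there, short of 2-fold. Flt3 was also highest there (6.55) but reached the minimum on both Th1 arrays too. Zbtb46 (5.99) and Siglech (5.63) were higher on another array, and Xcr1 was below the minimum on each. The part of these cell types in the Cxcl3 signal was not tested.

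**Figure D3:**
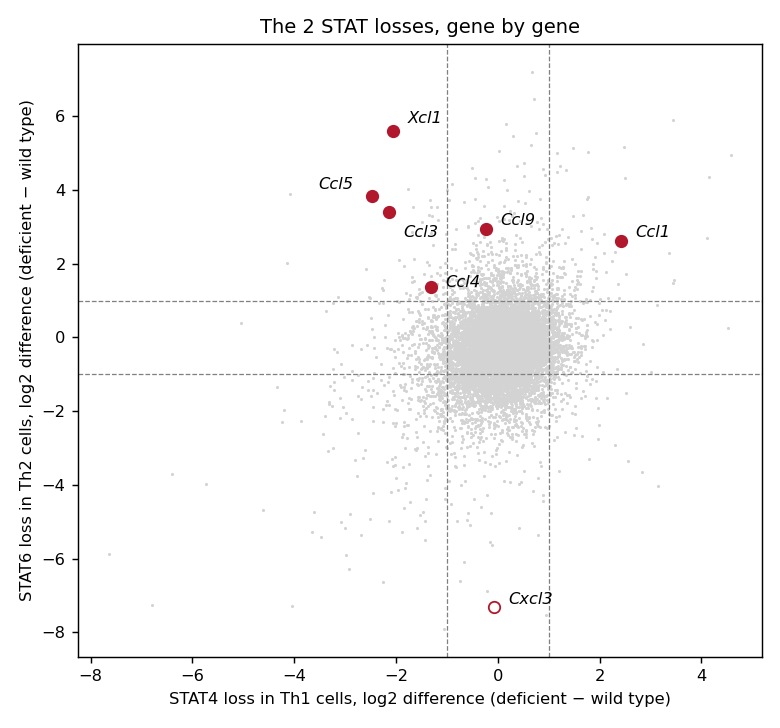
Log2 difference for STAT4 loss in Th1 cells (horizontal axis) against that for STAT6 loss in Th2 cells (vertical axis), with a grey point for each gene at the level minimum in both, the chemokine genes in red (open where both Th1 arrays are below the minimum) and dashed lines at 1 either way. Xcl1, Ccl5, Ccl3 and Ccl4 lie at the upper left, Ccl1 at the upper right and Cxcl3 at the bottom.

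The STAT4 and STAT6 comparisons share no array. Set side by side, Ccl3, Ccl4, Ccl5 and Xcl1 were lower in the first and higher in the second, Ccl1 was higher in both, Ccl9 was higher in the second alone and Cxcl3 was lower in the second alone. Whether the 2 losses differ for any gene was not tested.

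Between the deficient groups some genes differed less than between the wild types. Xcl1 differed by 0.26 there (Th1 STAT4-deficient minus Th2 STAT6-deficient), against at least 6.20 between the wild types when counted from the level minimum. Ccl3 (−0.92) and Ccl4 (−0.68) were not called, and Cxcl3 was below the minimum in both. Ccl5 (−2.77), Ccl1 (−2.21) and Ccl9 (−1.31, with −0.10 on the other probe set) were called lower in the Th1 group, and none was called higher. The shares over all 12582 genes were 10.3% called lower and 12.6% higher.

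Among the 7 genes, profiles over the 4 arrays were compared by the root mean square difference after each gene's own mean was subtracted. The closest pairs were Ccl4 with Ccl9 (0.70), Ccl3 with Ccl5 (0.76) and Ccl5 with Ccl9 (0.85), all from 1 stretch of chromosome 11. The farthest pair was Xcl1 with Cxcl3 (6.10). Of the 13147 genes that reached the minimum on an array, the nearest to Xcl1 were Klrd1, the CD94 receptor chain gene (0.76), and Tbx21, which encodes T-bet (1.22), then 4933430I17Rik (1.25). Klrd1, which was not among the NK markers listed for the check, read 11.36, 9.58, 3.36 and 7.38. Tbx21 read 12.26, 11.36, 7.69 and 11.85. Nearest to Ccl3 were Gbp2 (0.42), Spin4 (0.49) and Gm8369 (0.50), and nearest to Ccl5 were Trim12a (0.47), Hectd2 (0.48) and Gbp3 (0.50), whose place Gm8369 took after quantile normalization. For Ccl9 they were Mndal (0.09), Gbp7 (0.15) and Crtam (0.15), of which quantile normalization kept Crtam alone. Nearest to Ccl1 were Zfp827 (0.32), Ptprs (0.37) and Trim21 (0.41), and nearest to Cxcl3 were Rnf152 (0.30), Cyp11a1 (0.33), the first enzyme gene of steroid synthesis, and Epas1 (0.50). For Ccl4 they were Mxd1 (0.04), Zc3h12d (0.11) and Plod2 (0.12), but quantile normalization and cyclic loess each gave 3 other genes. A likeness over 4 arrays is a description only, and a narrow profile such as that of Ccl4 finds near matches most easily.

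**Figure D4:**
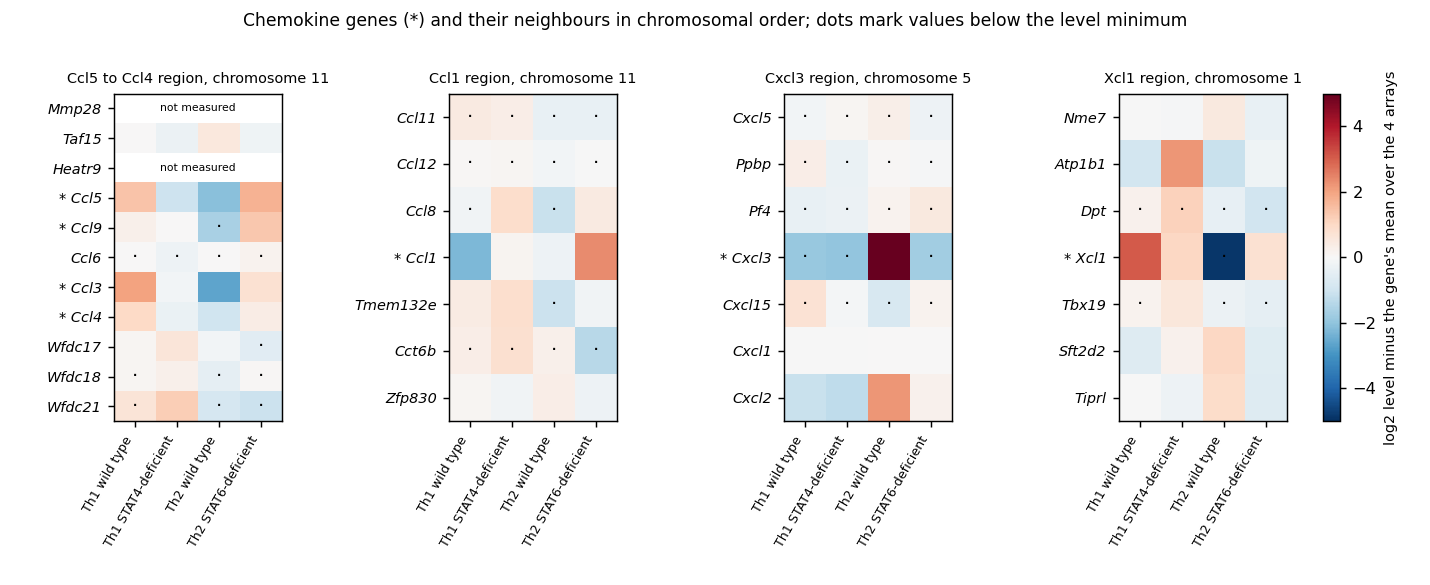
Chemokine genes (asterisks) and the protein-coding genes on each side, in chromosomal order from top to bottom, for 4 regions; colour gives the log2 level minus the gene's own mean over the 4 arrays (columns), and dots mark values below the level minimum. Ccl6, between Ccl9 and Ccl3, is below the minimum on each array, and Cxcl2 shares with Cxcl3 its highest value in wild type Th2 cells.

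Ccl5, Ccl9, Ccl3 and Ccl4 lie in a row on chromosome 11, interrupted by Ccl6 alone among protein-coding genes of the RefSeq table. Ccl6 lay between 4.10 and 4.55, below the minimum on each array. On the far side of Ccl4, Wfdc17 (0.52 for STAT4 loss and −0.41 for STAT6 loss) and Wfdc18 (0.15 and 0.50) were not called (Wfdc18 lay below the minimum in both Th2 groups), nor was Taf15 (−0.33 and −0.74) on the Ccl5 side. Mmp28 and Heatr9 had no probe set with 1 gene and were not analysed here. Ccl1 lies in another cluster of the same chromosome. Its neighbour Ccl8 was called higher in both losses, but from values below the minimum, so that it was at least 1.46-fold higher without STAT4 and at least 1.09-fold higher without STAT6, and of the 4 other scalings 1 kept its STAT4 call. Ccl11 and Ccl12 were below the minimum throughout. Of the neutrophil attractant cluster on chromosome 5, Cxcl2 read 8.06 and 7.92 in Th1 cells with and without STAT4, and 11.39 and 9.41 in Th2 cells with and without STAT6. It was thus highest on the array where Cxcl3 was, with a difference of −3.33 between the wild types (Th1 minus Th2) and of −1.99 for STAT6 loss. Cxcl1 stayed between 7.45 and 7.51, while Cxcl5, Ppbp, Pf4 and Cxcl15 were below the minimum on each array. Of the neighbours of Xcl1 on chromosome 1, Atp1b1 was 3.13 higher without STAT4, opposite to Xcl1. Sft2d2 and Tiprl were lower without STAT6 (−1.64 and −1.56), also opposite to it, where 19.5% of all genes were called lower. Nme7 was not called in either loss (−0.04 for STAT4 and −0.87 for STAT6). Tbx19 was not called in STAT4 loss (0.40) and lay below the minimum in both Th2 groups, and Dpt was below the minimum on each array.

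Of the 31 other chemokine genes listed for comparison, 28 were measured. In STAT4 loss 18 were at the minimum, of which 1 was called higher (Ccl8) and 1 lower (Cxcl11, at least 2.03-fold), with a median of 0.20. Median centring, quantile normalization and cyclic loess each gave none higher and 2 lower, and scaling to the hybridization controls gave 4 higher and none lower. In STAT6 loss 5 of 16 were called higher and 1 lower, with a median of 0.27. The higher ones were Ccl8, Ccl20, which draws CCR6-bearing cells, and the interferon-inducible CXCR3 ligands Cxcl10, Cxcl11 and Cxcl9; the lower one was Cxcl2. Cxcl10 differed by 5.05. The other higher genes started below the minimum in wild type Th2 cells, and counted from it Ccl20 was at least 8.27-fold, Cxcl11 at least 2.16-fold and Cxcl9 at least 1.73-fold higher, the last short of 2-fold. These 6 calls held under all 4 other scalings. Cxcl10 read 10.64 and 10.67 on the Th1 arrays, a difference of 0.03, so it did not share the STAT4 difference of Ccl3 and Ccl5. Between the wild types 5 of 15 were higher in Th1 cells and Cxcl2 was lower (7 higher after quantile normalization, 8 after cyclic loess and 2 when scaled to the hybridization controls), and between the deficient groups 3 of 18 were higher and 4 lower.

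**Figure D5:**
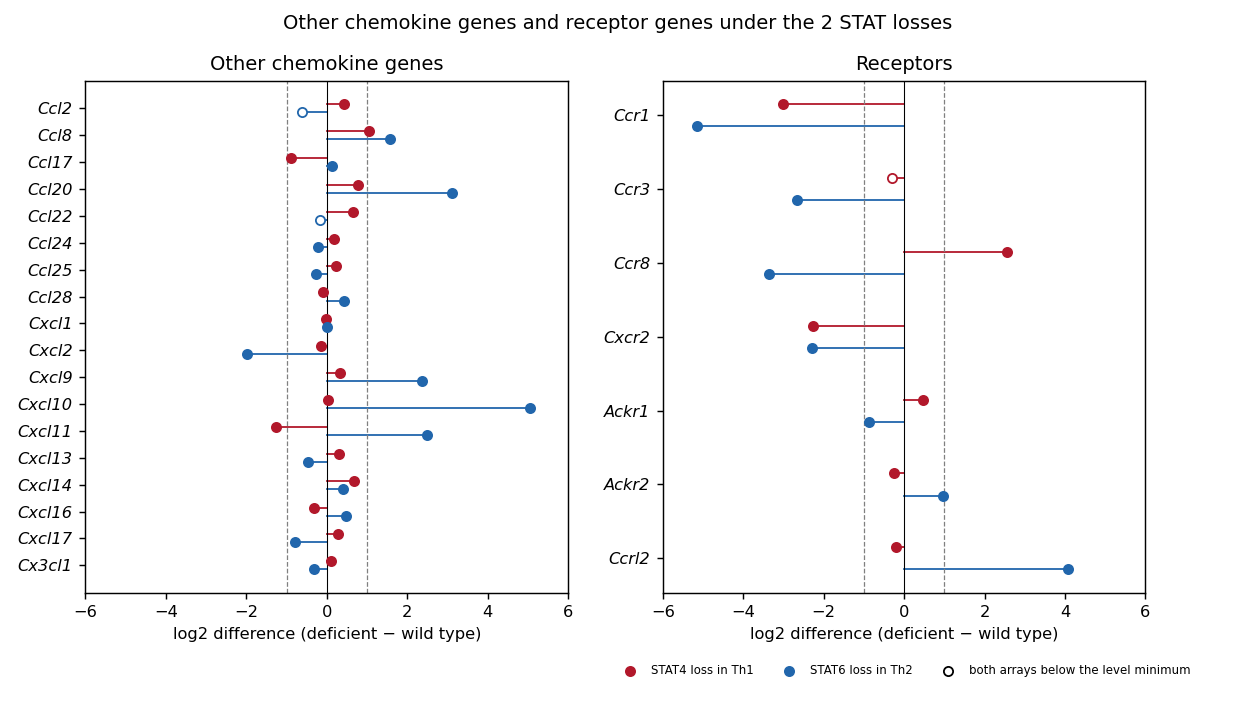
Log2 difference (horizontal axis) of the other chemokine genes and of the receptor genes for STAT4 loss (red) and STAT6 loss (blue), with open points where both arrays are below the level minimum and dashed lines at 1 either way. Cxcl10 and Ccl20 lie far to the right for STAT6 loss alone, Ccr8 lies on opposite sides for the 2 losses, and Ccr1 lies to the left for both.

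Several receptor genes listed beside these chemokines were called too. Of 10 listed receptor genes 8 are reported here. In STAT4 loss 1 of 6 at the minimum was higher and 2 lower, and in STAT6 loss 1 of 7 was higher and 4 lower. Over all genes 6.18% were called higher and 5.34% lower in STAT4 loss, and 7.01% and 19.5% in STAT6 loss. Those shares stand beside the counts of each list given here. Ccr8, the receptor of CCL1, read 8.12 and 10.68 in Th1 cells with and without STAT4, and 10.54 and 7.20 in Th2 cells with and without STAT6. Its differences were 2.56 without STAT4, as for Ccl1, and −3.35 without STAT6, opposite to Ccl1. Ccr1, a receptor of CCL3, CCL5 and CCL9, read 8.04, 5.03, 9.92 and 4.76. It was thus bright on both wild type arrays and below the minimum on both deficient arrays. Cxcr2, the CXCL3 receptor, read 7.60, 5.34, 6.89 and 4.60 and was likewise below the minimum without either factor. Ccrl2, an atypical receptor gene on the list that is not taken here as a receptor of the 7 chemokines, was 4.08 higher without STAT6, at 11.12. Ccr3, a receptor of CCL5, was at least 1.11-fold lower without STAT6 (5.97 in wild type Th2 cells, just above the minimum). Xcr1 was below the minimum on each array.

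Since the cells had been restimulated, early T cell receptor response genes were counted beside the chemokine genes. Of 26 listed genes, 12 were lower and none higher in STAT4 loss (median −0.90), led by Rgs2 (−3.21), Nr4a2 (−3.14), Fosl2 (−2.43) and Ier3 (−2.21). In STAT6 loss 7 were higher and 2 lower (median 0.23), with Tnf (2.39), Il2 (2.31), Cd69 (2.04) and Nfkbid (1.30) the furthest above wild type. Between the wild types 14 were higher in Th1 cells and 1 was lower (median 1.12). The list's median thus had the sign of the differences of Ccl3, Ccl4, Ccl5 and Xcl1 in each of these comparisons. Between the deficient groups 1 of the 26 was higher and 5 were lower (median −0.43). Ccl3 (−0.92), Ccl4 (−0.68) and Ccl5 (−2.77) had the sign of that median. Xcl1 differed by 0.26, within the probe-set SD of 0.85, and by −0.12 under median centring, so its sign there is not settled. The list's part in the differences of these chemokine genes was not tested. Over the 4 other scalings, STAT4 loss gave 9 to 14 of the 26 lower and none higher (medians −1.14 to −0.52). Scaled to the hybridization controls, STAT6 loss gave 5 higher and 5 lower, and the wild types gave 9 higher and 1 lower. Of 18 measured factors linked to chemokine genes in T cells, 2 were higher and 6 lower without STAT4 and 6 were higher and 7 lower without STAT6 (3 higher and 7 lower when scaled to the hybridization controls). The largest differences without STAT4 were those of Gata3 (2.52), the Th2 master regulator gene, Hlx (at least 3.86-fold lower), Rel (−1.59), an NF-kappaB subunit gene, and Maf (−1.58). Without STAT6 they were those of Prdm1 (at least 38.6-fold lower), which encodes Blimp-1, Maf (at least 25.2-fold lower), Tbx21 (4.16) and Irf8 (2.72). Tbx21, second in likeness to Xcl1, differed by −0.91 without STAT4 and was not called there, but was called lower under median centring.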

How the data were processed

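Total RNA of 4 cell cultures was measured on 4 arrays, 1 for each group. Each probe set has 1 log2 value per array, deposited after RMA, per the submitters' processing notes; the version, and whether the arrays were normalized together, are not given in the sources used here. Such scaling can shift all genes of an array at once. Of 45101 probe sets, 64 are controls. The platform annotation gave 1 symbol for 34945 of the others and several for 932; 34741 matched the RefSeq gene table (GRCm38.p6), which updated symbols and gave gene order.

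From these values differences, calls (at least 2-fold, brighter array at or above 5.82), ranks and profile likeness were computed across all genes with Python 3.11.15 and pandas 2.3.3. The text names the 3 nearest genes of each chemokine gene, chromosomal neighbours, and up to 4 genes of each list per comparison, by size of difference; single markers and further receptor genes were chosen after their values were seen. Alternatives were median centring, quantile normalization and cyclic loess (limma 3.58.1), hybridization controls, other level minimums, other probe set choices and a stricter fold. With 1 array for each group no test was possible, and the number of arrays limits precision. The chemokine genes and the lists were chosen with earlier results of these data known. The scripts were tested on simulated arrays.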

Additional observations from a re-analysis of the deposited data

Results flagged for a closer look

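For 4 genes, loss of the STAT factor that carries the culture's polarizing signal went opposite ways in the 2 cultures, with both differences past 2-fold. STAT6 loss in Th2 cells minus STAT4 loss in Th1 cells came to 7.66 log2 units for Xcl1, 6.29 for Ccl5, 5.56 for Ccl3 and 2.67 for Ccl4. The Xcl1 value rests on a wild type Th2 signal below the level minimum; counted from the minimum it is at least 5.94, so it has no settled order against Ccl5. With 1 array for each group this difference was not tested.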

How the results depend on the processing

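Among 28 differences of the 7 genes, 22 were called, and 25 kept their side of the 2-fold limit under all 4 other scalings. The exceptions were Ccl4 in STAT4 loss (−0.95 after cyclic loess and −0.92 with hybridization controls, against −1.31) and, between the deficient groups under median centring, Ccl3 (−1.29) and Ccl4 (−1.06), which raised the number called lower there from 3 to 5. No called difference changed sign under any alternative run. A limit of 1.5 removed Ccl4 from both losses and Ccl9 from the deficient groups. With the dimmer Ccl9 probe set the deficient groups differed by −0.10, and with the mean of both by −0.71. For all genes, the share of calls that were higher was 53.7% in STAT4 loss (24.8% to 87.7% over the other scalings) and 26.5% in STAT6 loss (18.4% to 43.4%). The wild types gave 24.3% (8.98% to 45.2%) and the deficient groups 55.1% (18.8% to 71.0%). Calls in STAT4 loss rose from 1452 to 2735 with hybridization controls; a limit of 1.5 left 491, 1452, 1953 and 1061 calls, against 1452, 3043, 4058 and 2875. Raising the minimum to the 75th percentile left 847 calls in STAT4 loss and 1386 between the deficient groups, and ended the Ccl9 call between the wild types, as did its dimmer probe set. No paired analysis was possible because each group has 1 array. Values below the level minimum share a coarse grid, which limits the dim ends of Xcl1, Ccl9 and Cxcl3, and those near the top of the scale limit Ccl4 and Ccl1.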
